A study of Rattus norvegicus with 12 samples.

Results

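The genes described here are the matrix metalloproteinases (MMPs), the ADAMTS proteases with their ADAMTS-like relatives, and the tissue inhibitors of metalloproteinases (TIMPs). They were taken as every gene whose symbol begins with Mmp, Timp, Adamts or Adamtsl followed directly by a digit. The rule found 49 of the 34700 genes in the table, namely 22 Mmp, 4 Timp, 19 Adamts and 4 Adamtsl genes, and it used no measured value. Left ventricular RNA was sequenced from 12 male Sprague-Dawley rats operated on at 8 weeks of age, with 3 rats in each of 4 groups. In the HF group the left anterior descending coronary artery was ligated to produce heart failure after myocardial infarction, and the rats stayed sedentary. The HFE rats had the same ligation and were then trained by treadmill running, 5 days a week at 60 min per session. The BAIBA rats had the ligation and received β-aminoisobutyric acid, a small metabolite released by exercising muscle, by gavage at 75 mg/kg/day, while by the methods Sham and HF rats of that experiment were given water. A supplementary protocol instead has BAIBA given to the Sham and HF groups, and the groups here follow the labels. The Sham rats had the thread passed around the artery but not tied. Treatment began 4 weeks after surgery and lasted 8 weeks, and the hearts were examined at 12 weeks. The surviving rats had been assigned to groups by ejection fraction at 4 weeks. The tissue came from the anterior left ventricular wall, described as the area around the infarct for BAIBA rats in the study's methods and for both HF and BAIBA rats elsewhere in it. The methods describe exercise and BAIBA studies separately, each with Sham and HF groups. Which study gave the sequenced Sham and HF rats is not stated. In BAIBA against HFE, study, gavage and sampled region therefore cannot be told apart from treatment.

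MMPs and ADAMTS proteases are zinc-dependent enzymes that cut the proteins of the extracellular matrix. Most are made as inactive precursors, activated by other proteases, and held in check by TIMPs, which occupy the active site. After an infarct this system takes part in removing dead muscle, building the scar and reshaping the ventricle, with infiltrating leukocytes bringing some members (Mmp8, Mmp9, Mmp12) and resident fibroblasts and muscle cells making others (Mmp2, Timp2, Timp3). RNA levels say nothing of activation or inhibition, which act on the proteins.

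Each rat gave 14812541 to 19732588 counts on genes, and the family took between 0.0806% and 0.106% of them. All 5 cardiomyocyte markers (Myh6, Tnnt2, Actn2, Ryr2, Pln) were present in every rat. They summed to 31006 to 33700 CPM (counts relative to the scaled library total) in Sham, 24334 to 26257 in HF, 22847 to 27222 in HFE and 24493 to 33006 in BAIBA. Myh6 was lower in every HF and HFE rat than in every Sham rat, while Tnnt2 was higher in every HFE rat. Of 5 atrial markers, Myl7 was lower in every BAIBA rat (0.30 to 0.67 CPM) than in every Sham rat (11.3 to 40.6). Nr2f2 was higher, and the other atrial markers overlapped. The 5 T cell markers summed to 184.5 CPM in HF rat 1 and to 6.09 to 16.8 CPM in the other rats. The 5 mesothelial markers summed to 83.4 CPM in BAIBA rat 1 and to 18.1 to 39.1 CPM elsewhere. Rats are numbered as in the sample labels. In these bulk samples, fewer cells of a type and less RNA per cell cannot be told apart.

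Of the 4 classes, the inhibitors held the largest share of the family's transcripts in every rat. On the FPKM scale, which divides by transcript length and so allows genes to be compared, the 4 TIMP genes held 42.0% to 57.6% of the family's summed level in each rat. In HFE rats 1 and 3 the MMP and ADAMTS genes together exceeded the TIMP sum. The MMP genes held 15.4% to 24.8%, the ADAMTS genes 13.4% to 28.5% and the ADAMTS-like genes 11.2% to 15.9%. By mean over the 12 rats the order was Timp3 at 77.9 FPKM, Timp2 at 56.4, Mmp2 at 29.6, Timp4 at 27.6, Adamtsl5 at 20.0, Adamtsl4 at 20.0, Mmp15 at 17.7, Adamts1 at 16.4 and Adamts10 at 10.1. The ranges over rats of Mmp2 (20.3 to 39.5 FPKM) and Timp4 (13.8 to 38.4 FPKM) overlapped almost fully, as did those of Adamtsl5, Adamtsl4 and Mmp15. A mean of at least 1 FPKM was reached by 24 members and at least 10 counts in every rat by 25. At the other end, 6 members (Mmp1b, Mmp7, Mmp10, Mmp11, Mmp27, Mmp28) had 0 counts in all rats, where a count of 0 allows up to 0.159 to 0.208 CPM per library. A further 7 members had 1 to 30 counts over all rats together.

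**Figure D1:**
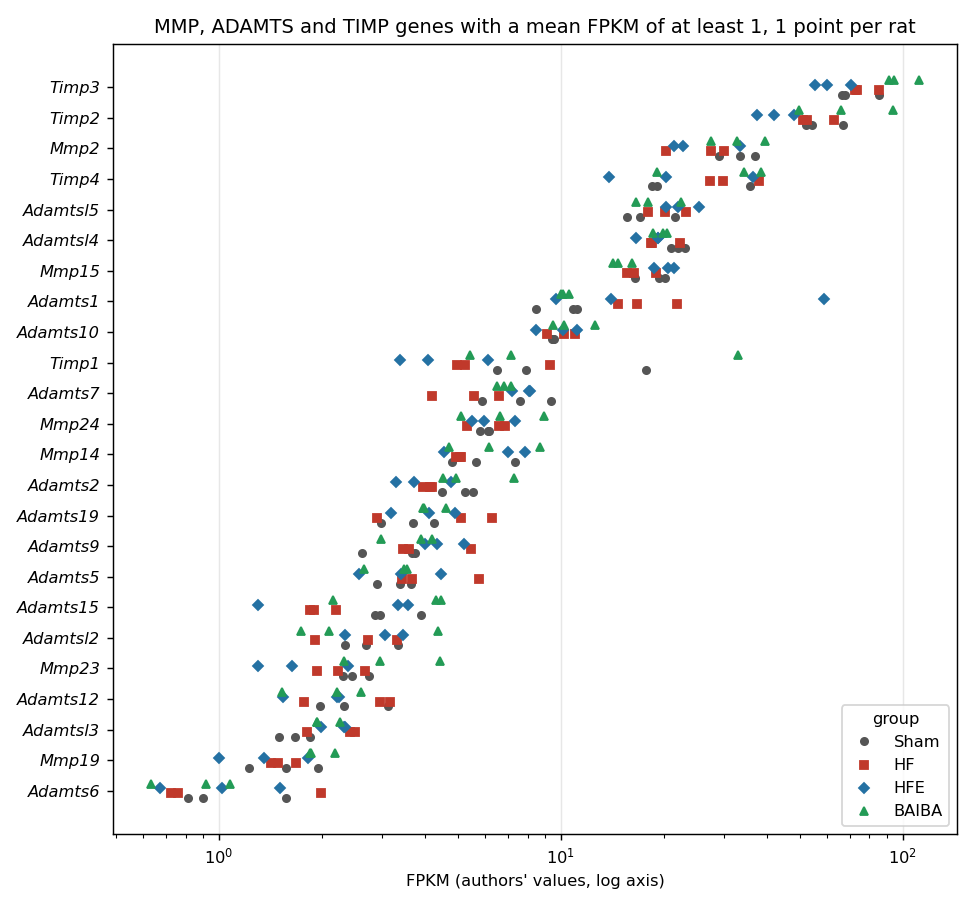
Levels of the 24 members with a mean of at least 1 FPKM, in order of the mean. The horizontal log axis gives FPKM, each point is 1 rat, and colour and shape give the group. Timp3 and Timp2 lie at the top, the groups overlap in most members, and single points far to the right are Adamts1 in HFE rat 3 (58.9 FPKM) and Timp1 in BAIBA rat 1 (33.1 FPKM).

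No member met the study's criteria for a differentially expressed gene, an adjusted p under 0.05 with a log2 fold change over 1 in size, in any pairwise comparison. The test was edgeR's quasi-likelihood test with Benjamini-Hochberg adjustment over all genes tested. These criteria were met by 0% of all genes tested in HF against Sham, 0% in HFE against HF, 0% in BAIBA against HF, 0.0808% in BAIBA against HFE, 0% in HFE against Sham and 0.0402% in BAIBA against Sham. They were also met by 0% for the 9 ligated rats against Sham, and 0% of genes had an adjusted p under 0.05 over the 4 groups together. With so few calls anywhere, the count of 0 members is what the background gives, and the rest of the description rests on unadjusted p-values and intervals. An unadjusted p under 0.05 was found for 5 of 30 members tested in HF against Sham (16.7%, against 6% of all genes), 4 of 30 in HFE against HF (13.3%, against 7.62%) and 4 of 31 in BAIBA against HF (12.9%, against 5.55%). It was found for 6 of 28 in BAIBA against HFE (21.4%, against 9.57%), 6 of 29 in HFE against Sham (20.7%, against 11.2%) and 3 of 28 in BAIBA against Sham (10.7%, against 7.41%). For the ligated rats against Sham it was 1 of 33 (3.03%, against 6.35%), and over the 4 groups 6 of 33 (18.2%, against 9.71%). DESeq2 also called 0 members in each pairwise comparison, where it called from 20 genes (HFE against HF) to 155 (BAIBA against HFE). Over the 4 groups DESeq2 called 2 of 33 members (Mmp15 and Timp3) beside 345 of all 15617 genes tested. The comparisons share groups, so their counts are not independent of each other. Members passed the low-count filter in part through the groups where they were high.

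The members split between higher and lower in each comparison. The median log2 fold change over the members tested was 0.015 in HF against Sham, where that of all genes was 0.0088, and 15 members lay above 0 and 15 below. In BAIBA against HFE it was 0.012 with 14 above and 14 below, beside 0.00049 for all genes. The split was least even in BAIBA against Sham, with 17 above and 11 below and a median of 0.13 beside 0.0040 for all genes. It was 17 to 12 in HFE against Sham (median 0.097), 18 to 13 in BAIBA against HF (0.076), 16 to 14 in HFE against HF (0.0087) and 19 to 14 for the ligated rats against Sham (0.046). For 16 to 23 of the members tested in a comparison the 95% interval stayed inside a doubling or a halving, so that larger differences were outside the interval for those genes only.

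**Figure D2:**
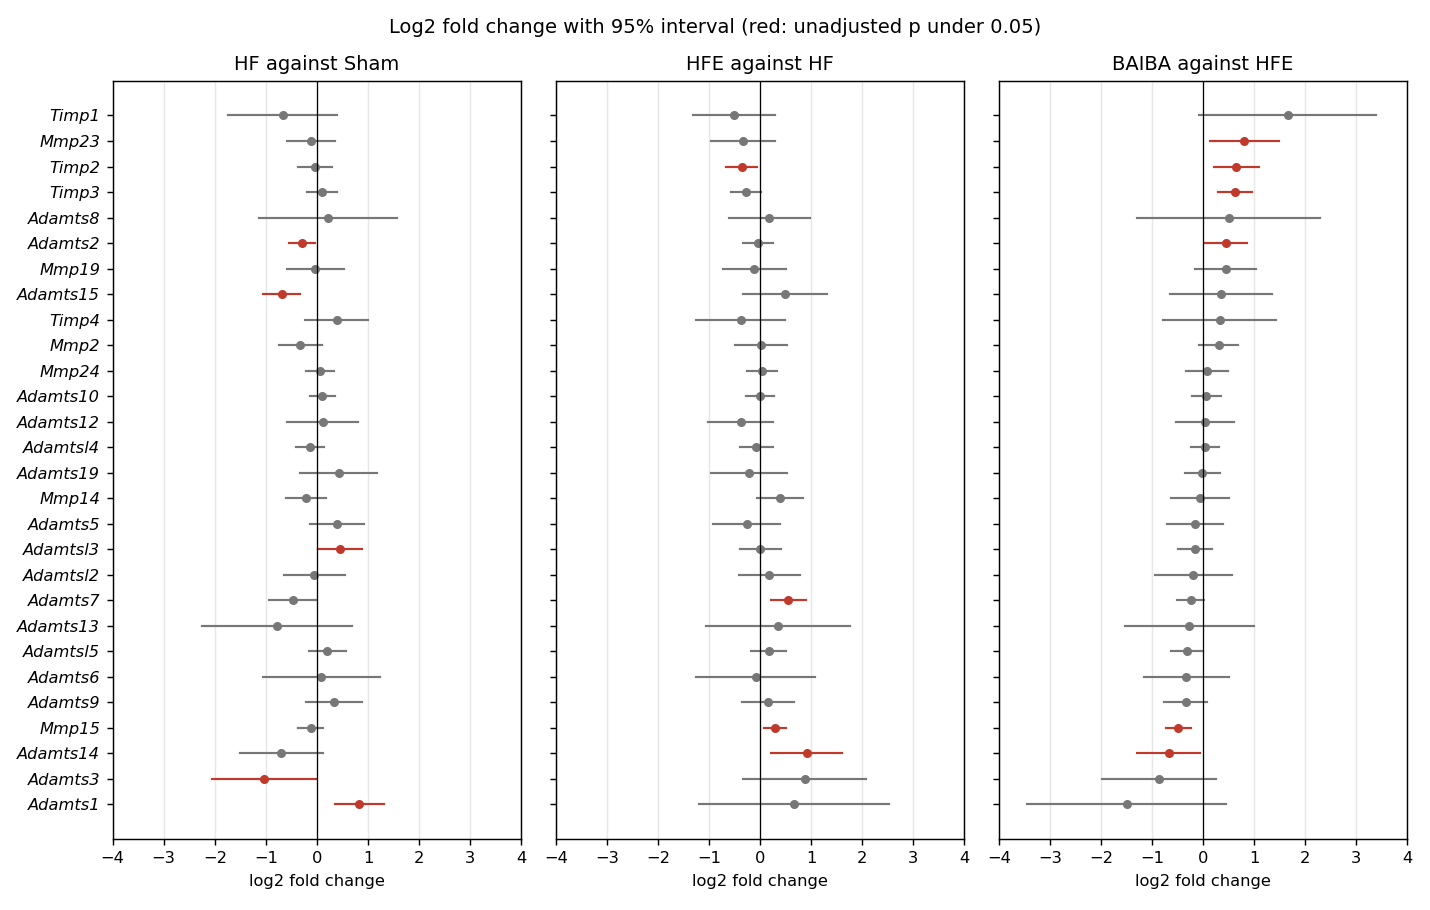
Log2 fold change (horizontal axis) of the 28 members tested in BAIBA against HFE, shown for 3 comparisons, with lines for the 95% interval. Red marks an unadjusted p under 0.05, which no member combined with an adjusted p under 0.05. In the right panel all 4 TIMP genes lie above 0 and Mmp15 lies below it.

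The inhibitors are described first. Timp3 (ENSRNOG00000004303) encodes an inhibitor that stays bound to the matrix and also blocks ADAM17 and several ADAMTS enzymes. Its levels were 119, 114 and 146 CPM in Sham rats 1 to 3, 122, 151 and 132 in HF, 104, 101 and 129 in HFE, and 148, 202 and 164 in BAIBA. All BAIBA rats were above all HFE rats and, by a narrow margin, all Sham rats, while HF rat 2 lay within the BAIBA range. The log2 fold change was 0.63 for BAIBA against HFE (SE 0.14, 95% interval 0.29 to 0.96, adjusted p = 0.189, edgeR). It was 0.34 for BAIBA against HF (SE 0.14, adjusted p = 0.851, edgeR) and 0.45 for BAIBA against Sham (SE 0.14, adjusted p = 0.589, edgeR). Over the 4 groups Timp3 had an adjusted p of 0.357 in edgeR and passed the threshold in DESeq2.

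Timp2 (ENSRNOG00000003148), whose protein inhibits MMPs and also helps Mmp14 to activate the Mmp2 precursor, stood at 90.8, 84.7 and 109 CPM in Sham, 80.7, 88.3 and 109 in HF, 78.8, 73.2 and 64.8 in HFE, and 145, 85.9 and 109 in BAIBA. Every HFE rat was below every rat of the other 3 groups. The log2 fold change was -0.36 for HFE against HF (SE 0.13, 95% interval -0.67 to -0.051, adjusted p = 0.634, edgeR), -0.39 for HFE against Sham (SE 0.12, adjusted p = 0.323, edgeR) and 0.65 for BAIBA against HFE (SE 0.19, 95% interval 0.21 to 1.09, adjusted p = 0.302, edgeR). Without BAIBA rat 1, the highest of all rats, the log2 fold change for BAIBA against HFE went from 0.65 to 0.43. HF and Sham overlapped, with a log2 fold change of -0.034 (95% interval -0.36 to 0.29).

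Timp4, known for its high level in heart muscle, stood at 31.7, 31.8 and 59.6 CPM in Sham, 61.3, 51.2 and 48.5 in HF, 23.2, 36.3 and 64.8 in HFE, and 30.2, 60.4 and 65.0 in BAIBA. All 4 groups overlapped, and the interval for BAIBA against HFE ran from -0.78 to 1.43 on the log2 scale. Each BAIBA rat was above the HFE rat of the same number, by a narrow margin at rat 3 (65.01 against 64.77). Same-numbered rats are different animals, matched here by number only. With the replicate number as a block the log2 fold change went from 0.33 to 0.37 (adjusted p = 0.383, edgeR).

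Timp1 (ENSRNOG00000010208), the inducible inhibitor that binds the Mmp9 precursor, was the least abundant TIMP and the most variable. Its levels were 4.85, 12.8 and 5.71 CPM in Sham, 3.50, 3.93 and 7.20 in HF, 4.46, 2.63 and 3.17 in HFE, and 22.8, 4.17 and 5.25 in BAIBA. The BAIBA mean of 10.7 ± 10.4 CPM (SD, n = 3) rested on rat 1, with 408 counts against 65 and 87 in the other rats of its group. Without that rat the log2 fold change for BAIBA against HF went from 1.14 (95% interval -0.57 to 2.85) to -0.046, and that for BAIBA against HFE went from 1.66 to 0.46. For HFE against Sham it was -1.18 (SE 0.41, adjusted p = 0.366, edgeR), and -0.63 without Sham rat 2, the high rat of that group.

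Summed on the FPKM scale, the 4 TIMP genes reached 147, 155 and 196 in Sham, 167, 173 and 172 in HF, 128, 121 and 148 in HFE, and 237, 201 and 206 in BAIBA. HFE rats 1 and 2 were the lowest of all rats and every BAIBA rat was above every other rat. The MMP sum lay between 54.3 and 82.1 in all rats, with the HF rats (59.8 to 60.4) below all Sham rats (64.3 to 72.0) and the other pairs of groups overlapping. The MMP sum divided by the TIMP sum was 0.417 ± 0.059 in Sham, 0.352 ± 0.005 in HF, 0.479 ± 0.108 in HFE and 0.318 ± 0.034 in BAIBA (mean ± SD, n = 3 each). No test was run on these sums. The 5 macrophage markers summed to 51.2 to 71.2 CPM in HFE, 71.3 to 134 in HF, 81.8 to 159.7 in BAIBA and 86.2 to 100.3 in Sham, with all 5 detected in every rat. Of these, Cd163 and Mrc1 were higher in every BAIBA rat than in every HFE rat, while Cd68, Csf1r and Adgre1 overlapped. The 6 fibroblast markers summed to 1046 to 1498 CPM in HFE and 1402 to 1983 in BAIBA. Endothelial markers summed to 528 to 714 CPM in HFE and 414 to 705 in BAIBA, and mural markers to 344 to 513 and 377 to 505. The 5 erythroid markers summed to 597 to 664 CPM in HFE and 742 to 1006 in BAIBA, and the mesothelial markers to 19.0 to 23.5 and 24.1 to 83.4. Within the erythroid list Alas2 and Hba-a1 were higher in every BAIBA rat than in every HFE rat. Hbb, Slc4a1 and Ahsp overlapped between these groups. Within the mesothelial list Wt1 overlapped, at 19.0 to 23.5 CPM in HFE and 17.8 to 22.8 in BAIBA. Msln stood at 0.067, 0 and 0 CPM in HFE and 36.1, 1.03 and 10.3 in BAIBA. Upk3b, Upk1b and Krt19 were also higher in BAIBA rats 1 and 3 than in the HFE rats. The part of these cell types in the TIMP levels was not tested.

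**Figure D3:**
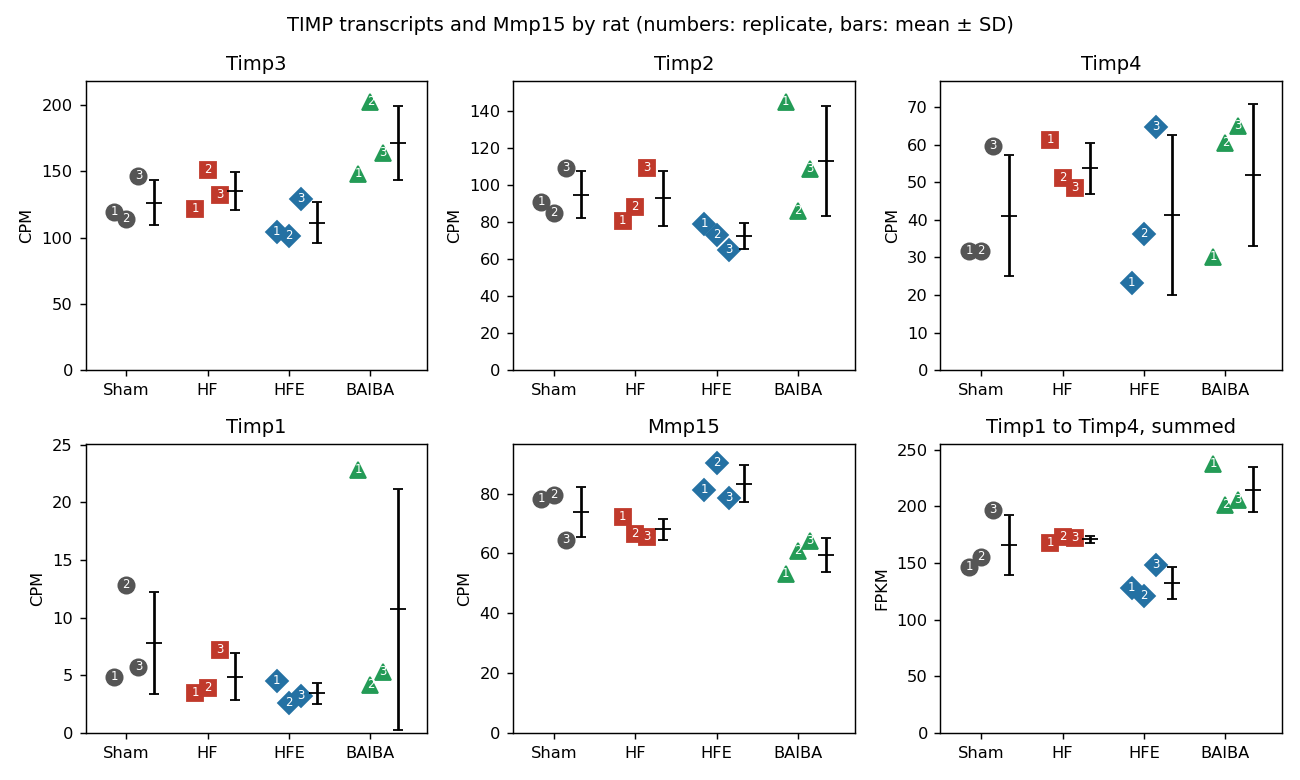
CPM of the 4 TIMP genes and Mmp15 in each rat, and the summed FPKM of the TIMP genes. Numbers in the points are the rats, and bars give the mean ± SD of 3 rats. BAIBA lies above HFE without overlap for Timp3, Timp2 and the sum, below it for Mmp15, and overlaps it for Timp4 and Timp1.

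In the annotation of GRCr8 the genes Timp1, Timp3 and Timp4 lie inside the synapsin genes Syn1, Syn3 and Syn2, and Timp2 overlaps Cep295nl. Whether the authors' counting used the strand is not given in the sources used here, so reads from such partners cannot be told apart. The promoters of the most and the least abundant TIMP are printed below from 250 bases before to 50 after the RefSeq start in GRCr8, 5′ to 3′ on the gene's own strand, to let a reader compare them with the protease promoters further on. Timp3 lies at chr7:19459509-19459808 (minus strand) and Timp1 at chrX:3771073-3771372 (minus strand). Capitals mark matches to the GC box GGGCGG on either strand, which begin at -158, -130 and -75 in Timp3 and at -142 in Timp1, counted from the start.
Timp3: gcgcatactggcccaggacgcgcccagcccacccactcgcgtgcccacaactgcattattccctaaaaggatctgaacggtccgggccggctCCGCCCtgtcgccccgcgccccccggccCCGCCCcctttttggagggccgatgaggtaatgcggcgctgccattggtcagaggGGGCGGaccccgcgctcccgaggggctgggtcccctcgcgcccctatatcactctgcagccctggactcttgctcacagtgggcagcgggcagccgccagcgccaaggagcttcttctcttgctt
Timp1: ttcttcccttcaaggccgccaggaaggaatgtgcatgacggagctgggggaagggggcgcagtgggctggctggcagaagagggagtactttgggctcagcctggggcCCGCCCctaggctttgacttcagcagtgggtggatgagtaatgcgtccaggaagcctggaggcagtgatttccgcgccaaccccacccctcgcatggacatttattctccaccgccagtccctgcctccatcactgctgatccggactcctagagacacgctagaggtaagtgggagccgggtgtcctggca

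Among the gelatinases, Mmp2 (ENSRNOG00000016695), the constitutive enzyme of fibroblasts, was the most abundant protease. It stood at 90.1, 101 and 111 CPM in Sham, 59.3, 85.4 and 96.2 in HF, 102, 68.9 and 73.1 in HFE, and 113, 87.3 and 99.7 in BAIBA. All groups overlapped, with a log2 fold change of -0.33 for HF against Sham (95% interval -0.75 to 0.094) and 0.32 for BAIBA against HF (95% interval -0.12 to 0.75). Mmp9 (ENSRNOG00000017539), the gelatinase stored by neutrophils, was near the floor with 1 to 13 counts in 11 of the rats and 60 counts in HF rat 1.

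Of the membrane-type MMPs, which sit on the cell surface, Mmp15 (ENSRNOG00000012622) was the most abundant. Its levels were 78.1, 79.4 and 64.4 CPM in Sham, 72.2, 66.4 and 65.5 in HF, 81.2, 90.2 and 78.4 in HFE, and 53.0, 60.8 and 64.2 in BAIBA. In CPM the BAIBA rats were below all other rats, by a narrow margin between BAIBA rat 3 (64.22) and Sham rat 3 (64.35), and the HFE rats were above all HF rats. On the deposited FPKM scale BAIBA rat 3 (16.1) was above HF rat 3 (15.7), and HFE rat 3 (18.7) was below HF rat 1 (18.97). The log2 fold change was -0.49 for BAIBA against HFE (SE 0.11, 95% interval -0.73 to -0.24, adjusted p = 0.179, edgeR), the lowest edgeR p of any member in any comparison. It was 0.29 for HFE against HF (SE 0.092, adjusted p = 0.627, edgeR), -0.31 for BAIBA against Sham (SE 0.12, adjusted p = 0.638, edgeR) and -0.20 for BAIBA against HF (SE 0.11, adjusted p = 0.851, edgeR). Over the 4 groups its adjusted p was 0.333 in edgeR and 0.0241 in DESeq2. Its unadjusted edgeR p of 0.0018 in BAIBA against HFE was close to that of Adamts1 in BAIBA against HF (0.00186). In DESeq2 the unadjusted p for those was 0.000208 and 3.61e-05, and that of Timp3 in BAIBA against HFE was 8.9e-05.

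Mmp14, which activates Mmp2 at the cell surface, stood at 13.9, 17.6 and 11.4 CPM in Sham, 11.8, 12.6 and 12.6 in HF, 18.9, 17.9 and 11.6 in HFE, and 19.7, 11.9 and 14.96 in BAIBA, with all groups overlapping. Its log2 fold change for HF against Sham was -0.22 (95% interval -0.61 to 0.17). Mmp24 was steadier, between 21.5 and 33.7 CPM in all rats, and lies over Mmp24os in the annotation. Mmp17 (1 to 17 counts) and Mmp16 (0 to 6 counts) were near the limit of detection at this depth. Mmp17 had 7, 1 and 5 counts in Sham, 17, 12 and 11 in HF, 7, 10 and 8 in HFE, and 3, 8 and 7 in BAIBA. In CPM every HF rat (0.58 to 0.97) was above every Sham rat (0.065 to 0.40) and every BAIBA rat (0.17 to 0.51). Its counts were too low for a test in HF against Sham.

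The Mmp15 promoter, at chr19:9690951-9691250 (minus strand) of GRCr8, is shown because this gene had the lowest edgeR p. It holds 1 GC box, in capitals at -137.
Mmp15: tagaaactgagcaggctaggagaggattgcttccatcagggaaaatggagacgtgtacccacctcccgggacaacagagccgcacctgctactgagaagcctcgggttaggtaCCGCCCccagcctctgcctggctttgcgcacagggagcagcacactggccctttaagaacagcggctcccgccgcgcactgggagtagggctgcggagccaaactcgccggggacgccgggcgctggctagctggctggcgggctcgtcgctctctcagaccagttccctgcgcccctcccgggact

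In BAIBA against HFE the adjusted p from DESeq2 was 0.00824 for Timp3, 0.0152 for Mmp15 and 0.0476 for Timp2, all below the fold limit. The edgeR fit with the replicate number as a block raised the members with an unadjusted p under 0.05 in that comparison from 6 to 11 of 28 and still left 0 called, while the share of all genes at that threshold went from 9.57% to 12% and the genes called from 12 to 32. With the block the adjusted p was 0.123 for Mmp15, 0.140 for Timp3, 0.152 for Timp2, 0.289 for Timp1 and 0.383 for Timp4. The other members with an unadjusted p under 0.05 without the block were Mmp23 at a log2 fold change of 0.81 (SE 0.29), Adamts2 at 0.45 (SE 0.18) and Adamts14 at -0.67 (SE 0.27). Without BAIBA rat 1 the log2 fold change was 0.56 for Mmp23 and 0.26 for Adamts2.

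The remaining MMPs were low, and several stood higher in 1 or 2 rats than in the rest. The macrophage elastase Mmp12 (ENSRNOG00000030187) had 84 counts in HF rat 1 and 95 in BAIBA rat 1, against 0 to 15 in the other rats. Mmp8, the neutrophil collagenase, had 20 counts in HF rat 1 and 1 to 7 elsewhere. Mmp3, a stromelysin that activates other MMPs, had 9 counts in BAIBA rat 1, 1 in HFE rat 2 and 0 in the rest. The collagenase Mmp13 reached 6 counts in HFE rat 1 and 0 to 2 elsewhere. Mmp1 had 1 count in all, and Mmp20 and Mmp21 had 0 to 3 counts a rat. Each of these highs was 1 rat of 3, so none describes a group. Mmp12 passed the filter in BAIBA against HF, where its 95% interval ran from -4.22 to 4.82 on the log2 scale.

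The 2 rats also stood apart in marker genes. HF rat 1, high for Mmp9, Mmp8 and Mmp12, had the T cell sum of 184.5 CPM, a neutrophil marker sum of 11.1 CPM (2.41 to 6.68 in the other rats) and Adam12 at 8.77 CPM (0 to 0.30 elsewhere), while its macrophage sum of 71.3 CPM was the lowest of the HF group. Of its neutrophil markers, S100a9 (6.36 CPM), S100a8 (2.01) and Mpo (0.92) were the highest of all rats. Csf3r (1.66 CPM) was within the range of the other rats, and Cxcr2 (0.11) was the lowest of all. BAIBA rat 1, high for Timp1, Mmp12, Mmp3 and Adamts8 (80 counts against 9 and 12 in its group), had the mesothelial sum of 83.4 CPM, the highest macrophage sum (159.7 CPM), Fn1 at 187 CPM (25.2 to 76.7 elsewhere) and Postn at 40.3 CPM (2.50 to 18.1 elsewhere). The part of these cells in the counts was not tested. In CPM BAIBA rat 1 was also the highest of all rats for Timp2, Mmp2, Mmp14, Mmp19, Mmp23, Mmp24, Adamts2, Adamts10 and Adamtsl2. The margin was narrow for Mmp2 (112.7 against 111.2 CPM in Sham rat 3). Mmp19 and Mmp23 were detected in every rat at 2.09 to 4.07 and 2.53 to 7.70 CPM.

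**Figure D4:**
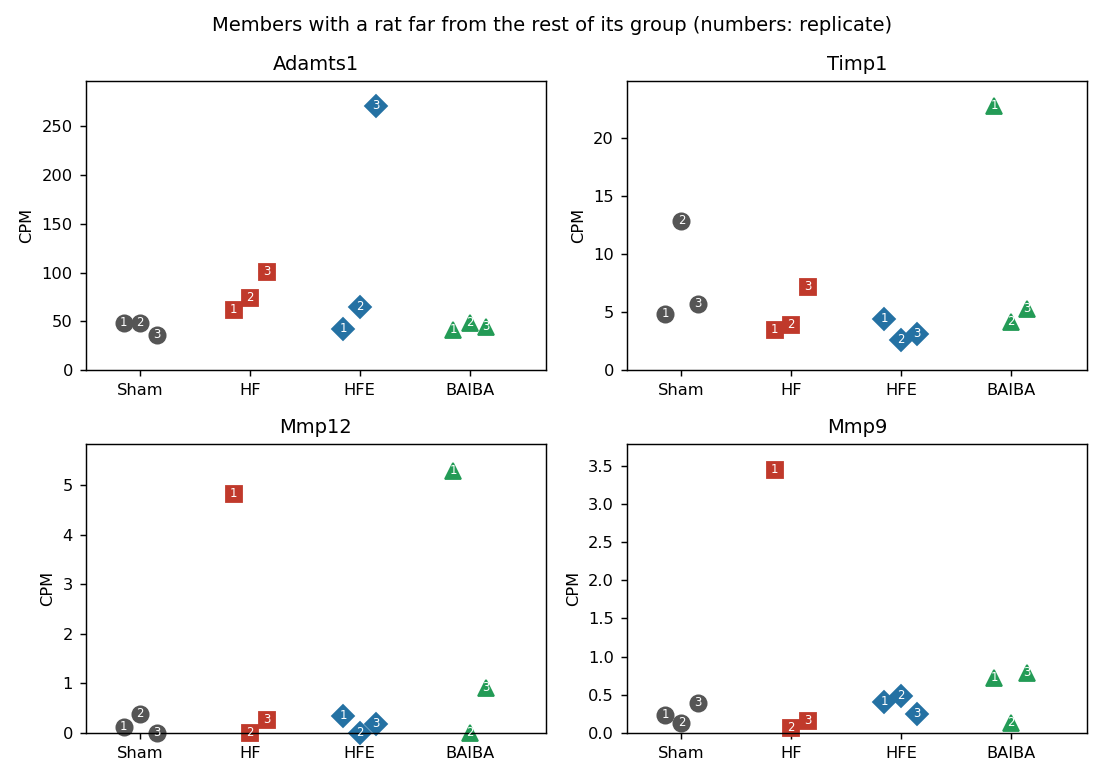
CPM of Adamts1, Timp1, Mmp12 and Mmp9 in each rat, with the rat's number in its point. HFE rat 3 lies apart for Adamts1, BAIBA rat 1 for Timp1 and Mmp12, and HF rat 1 for Mmp12 and Mmp9.

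Of these MMPs, 10 lie next to each other on chromosome 8 of GRCr8, in the order Mmp13, Mmp12, Mmp1b, Mmp3, Mmp1, Mmp10, Mmp8, Mmp27, Mmp20 and Mmp7. Over all rats they had 11, 215, 0, 10, 1, 0, 65, 0, 9 and 0 counts. The promoters of Mmp12 (chr8:12866402-12866701, plus strand) and Mmp3 (chr8:12925031-12925330, plus strand) are printed because both had most of their counts in few rats. Capitals mark the TATA box TATAAA, at -39 in Mmp12 and -32 in Mmp3, and the AP-1 site TGANTCA, at -87 and -71.
Mmp12: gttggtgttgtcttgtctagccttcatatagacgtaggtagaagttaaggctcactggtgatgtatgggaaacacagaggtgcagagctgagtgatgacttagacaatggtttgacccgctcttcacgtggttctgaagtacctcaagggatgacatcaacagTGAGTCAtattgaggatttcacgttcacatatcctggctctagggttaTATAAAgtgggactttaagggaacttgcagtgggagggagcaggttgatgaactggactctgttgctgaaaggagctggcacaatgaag
Mmp3: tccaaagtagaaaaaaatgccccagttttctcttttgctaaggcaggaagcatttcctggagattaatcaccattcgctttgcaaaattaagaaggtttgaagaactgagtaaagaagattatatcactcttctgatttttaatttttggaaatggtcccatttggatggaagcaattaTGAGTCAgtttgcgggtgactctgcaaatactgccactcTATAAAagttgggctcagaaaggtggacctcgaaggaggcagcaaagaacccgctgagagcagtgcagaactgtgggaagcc

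A RefSeq promoter of 300 bases was matched for 38 of the 49 members. Mmp2, Mmp14, Mmp19, Adamts5, Adamts15 and Adamts19 had none, which left 18 of the 24 members with a mean of at least 1 FPKM. Mmp9 was among the other members without one. Both strands were searched for the TATA box (TATAAA), the GC box (GGGCGG) and the AP-1 site (TGANTCA). Matches of different motifs cannot overlap. The GC box was found in 13 of the 18 promoters of members with a mean of at least 1 FPKM (72.2%), in 5 of 20 of the other members (25%) and in 33.1% of all 33469 promoters. TGANTCA was found in 0 of the 18 and 7 of the 20 (35%), against 7.33% of all promoters, and all 7 (Mmp1, Mmp3, Mmp7, Mmp10, Mmp12, Mmp13, Mmp20) belong to the chromosome 8 cluster. TATAAA was found in 4 of the 18 (22.2%) and 9 of the 20 (45%), against 14.2% of all promoters. Median GC content was 67.7% for the 18, 50.7% for the 20 and 51.7% for all promoters. Neighbours in a cluster share ancestry, so these shares are a description, and a match of letters is not a binding site.

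**Figure D5:**
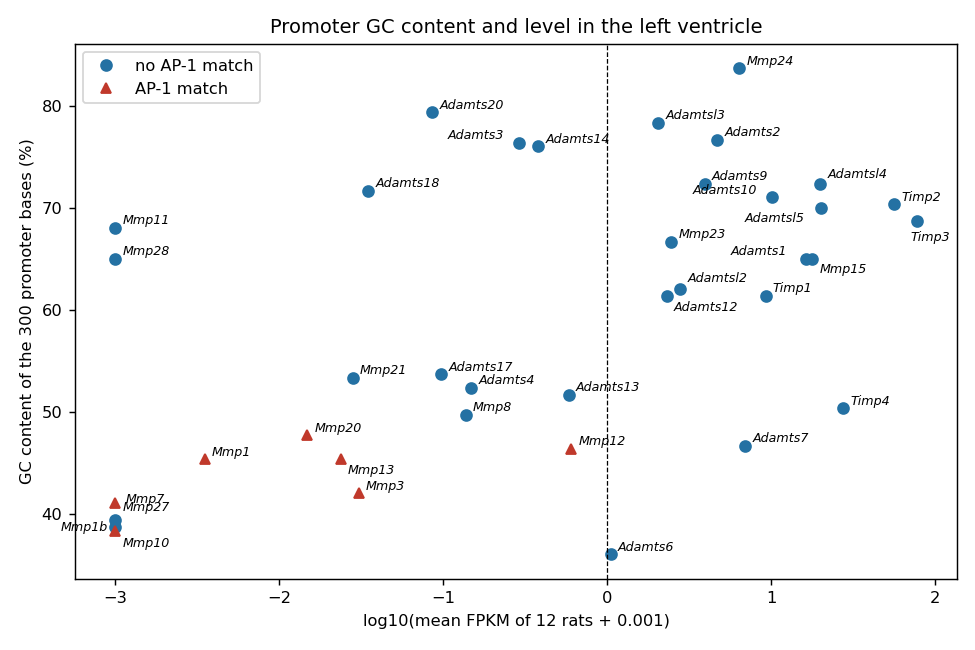
GC content of the 300 promoter bases (vertical axis, percent) against log10 of the mean FPKM plus 0.001 (horizontal axis) for the 38 members with a promoter. Triangles mark a TGANTCA match and the dashed line marks 1 FPKM. All triangles lie left of the line and below 50% GC.

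Among the ADAMTS proteases that cut proteoglycans such as versican, Adamts1 (ENSRNOG00000001607) was the most abundant. Its levels were 48.2, 48.0 and 36.4 CPM in Sham, 61.6, 74.4 and 100.25 in HF, 41.9, 64.6 and 271 in HFE, and 41.4, 48.0 and 43.8 in BAIBA. All HF rats were above all Sham and all BAIBA rats. The log2 fold change was 0.83 for HF against Sham (SE 0.20, 95% interval 0.35 to 1.31, adjusted p = 0.772, edgeR) and -0.83 for BAIBA against HF (SE 0.18, 95% interval -1.24 to -0.41, adjusted p = 0.798, edgeR), and both use the same HF rats. DESeq2 gave adjusted p-values of 0.0268 and 0.0199 for them, with the fold below the limit. The HFE mean of 126 ± 126 CPM (SD, n = 3) rested on rat 3 with 4273 counts. Without that rat the log2 fold change for HFE against HF went from 0.67 (95% interval -1.19 to 2.53) to -0.56, and that for BAIBA against HFE went from -1.50 to -0.26. In HFE rat 3 Thbs1 stood at 78.0 CPM and Sdc4 at 46.4, each the highest of all rats. Their part in the Adamts1 level was not tested.

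Adamts15 (ENSRNOG00000009892), another versican-cutting enzyme, ran the other way in the same groups. It stood at 18.1, 17.1 and 23.0 CPM in Sham, 10.6, 13.4 and 12.02 in HF, 21.3, 8.24 and 21.1 in HFE, and 25.1, 13.5 and 25.9 in BAIBA. The HF rats were below all Sham rats and, by a narrow margin at BAIBA rat 2, below all BAIBA rats. In FPKM HF rat 2 (2.19) was above BAIBA rat 2 (2.15). The log2 fold change was -0.69 for HF against Sham (SE 0.16, 95% interval -1.05 to -0.33, adjusted p = 0.737, edgeR) and 0.84 for BAIBA against HF (SE 0.25, 95% interval 0.25 to 1.43, adjusted p = 0.851, edgeR), again with shared HF rats. Adamts9 lay between 20.5 and 44.0 CPM in all rats, with a log2 fold change of 0.49 for HFE against Sham (SE 0.18, adjusted p = 0.377, edgeR). Adamts5, the main aggrecan-cutting enzyme of cartilage and the neighbour of Adamts1 in the genome, lay between 7.86 and 18.5 CPM with all groups overlapping. Adamts4 had 3 to 30 counts.

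The procollagen N-propeptidases Adamts2, Adamts3 and Adamts14 trim fibrillar procollagens so that fibrils can form. Adamts2 stood at 34.6, 35.5 and 28.7 CPM in Sham, 26.1, 27.4 and 27.2 in HF, 30.8, 22.6 and 25.5 in HFE, and 44.5, 30.8 and 32.1 in BAIBA. The HF rats were below all Sham and all BAIBA rats, with a log2 fold change of -0.29 for HF against Sham (SE 0.11, adjusted p = 0.805, edgeR) and 0.41 for BAIBA against HF (SE 0.16, adjusted p = 0.851, edgeR). Without BAIBA rat 1 the latter was 0.23. Adamts14 had 19 to 50 counts, at 1.55, 1.41 and 1.01 CPM in HF and 2.86, 2.15 and 2.47 in HFE, a log2 fold change of 0.91 (SE 0.30, adjusted p = 0.627, edgeR). Adamts3 had 9 to 40 counts and a log2 fold change of -1.04 for HF against Sham (SE 0.44, adjusted p = 0.805, edgeR) and -1.02 for BAIBA against Sham (SE 0.41, adjusted p = 0.656, edgeR). In HF against Sham all 3 had a negative fold change.

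Adamts7, which cuts cartilage oligomeric matrix protein, stood at 46.8, 56.1 and 35.1 CPM in Sham, 38.4, 34.4 and 26.9 in HF, 43.3, 52.0 and 51.6 in HFE, and 38.8, 45.3 and 39.6 in BAIBA. All HFE rats were above all HF rats, with a log2 fold change of 0.56 (SE 0.15, 95% interval 0.21 to 0.90, adjusted p = 0.627, edgeR), the lowest p of that comparison among the members. Adamts12 of the same branch lay between 12.2 and 27.5 CPM and all groups overlapped. Adamts13, which cuts von Willebrand factor in the blood, had 8 counts in HF rat 1, 13 in BAIBA rat 1 and 28 to 72 in the other rats. Adamts10, a partner of fibrillin microfibrils, was the steadiest ADAMTS, between 38.8 and 51.4 CPM in all rats. Adamts6, of the same branch, lay between 2.06 and 7.05 CPM and Adamts19 between 11.98 and 28.6 CPM, each with all groups overlapping. The last members were scarce, with 0 to 9 counts a rat for Adamts16, 2 to 11 for Adamts17, 0 to 6 for Adamts18 and 3 to 15 for Adamts20.

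The ADAMTS-like proteins lack the protease domain and bind the matrix, several of them at fibrillin microfibrils. Adamtsl3 stood at 13.8, 10.9 and 12.1 CPM in Sham, 12.7, 18.1 and 19.3 in HF, 16.9, 18.1 and 15.3 in HFE, and 13.3, 17.4 and 14.3 in BAIBA. The HFE rats were above all Sham rats, while HF and BAIBA each had 1 rat within the Sham range. The log2 fold change was 0.45 for HFE against Sham (SE 0.13, adjusted p = 0.304, edgeR), 0.44 for HF against Sham (SE 0.19, adjusted p = 0.805, edgeR) and 0.40 for the 9 ligated rats against Sham (SE 0.14, 95% interval 0.088 to 0.71, adjusted p = 0.755, edgeR). It was the only member with an unadjusted p under 0.05 in the last comparison. Adamtsl5 lay between 16.5 and 27.8 CPM, with a log2 fold change of 0.38 for HFE against Sham (SE 0.14, adjusted p = 0.389, edgeR). Adamtsl4 lay between 88.0 and 93.5 CPM in Sham, above every HFE rat (68.1 to 83.6) and every BAIBA rat (71.6 to 87.9), with a log2 fold change of -0.20 for HFE against Sham (95% interval -0.42 to 0.021) and -0.16 for BAIBA against Sham (95% interval -0.39 to 0.065). The HF rats (72.2 to 97.0 CPM) overlapped all groups. Adamtsl2 lay between 6.61 and 14.9 CPM, with all groups overlapping.

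The genes that surround these enzymes were read from 3 lists, with all-gene shares at an unadjusted p under 0.05 of 6% in HF against Sham, 11.2% in HFE against Sham, 9.57% in BAIBA against HFE and 7.41% in BAIBA against Sham. Of 16 listed substrates and matrix partners, 13 were tested in HF against Sham and 3 had an unadjusted p under 0.05, all lower in HF, with log2 fold changes of -0.56 for Col1a1, -0.42 for Col3a1 and -0.62 for Fn1. In HFE against Sham 2 of 14 were higher and 5 lower at that threshold, among them Fn1 at -1.12, Col3a1 at -0.43 and Eln at 0.41. In BAIBA against HFE 2 of 14 were higher and 1 lower, among them Fn1 at 1.83 and Fbn2 at -1.47, and the Fn1 value includes BAIBA rat 1. Fbn2 was near the limit of detection, at 0.87 to 1.04 CPM in HFE and 0.26 to 0.39 in BAIBA. Of 11 listed activating proteases and their inhibitors, 10 were tested in HFE against Sham, with 1 higher and 4 lower, among them Serpine2 at 0.55, Ctsl at -0.30 and Furin at -0.22. In BAIBA against Sham the log2 fold changes at that threshold included 0.57 for Plat, 0.87 for Plau and -0.34 for Pcsk6. Of 12 listed surface regulators and sheddases, 2 of 10 were higher in BAIBA against HFE (Lrp1 at 0.47 and Mrc2 at 0.62) and none lower, while in HFE against Sham 1 was higher (Bsg at 0.19) and 2 lower (Lrp1 at -0.46 and Mrc2 at -0.41). These comparisons share the HFE rats. Lrp1 is a receptor that clears TIMP and protease complexes. None of the genes of these 3 lists was called in any comparison by edgeR.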

How the data were processed

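Left ventricular RNA of 12 rats was sequenced as paired-end libraries from RNA bound to oligo(dT) beads. The authors used HISAT2 for alignment, StringTie to find genes outside the annotation, and featureCounts per gene. The deposited counts are raw whole numbers, and the authors derived the deposited FPKM values from them and the gene lengths. The rat build, annotation and strand setting of the counting are not given in the sources used here. The submitters' processing notes list mm9, a mouse build, for these rat samples, and how it was used is not stated.

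The tests on counts used edgeR 4.0.16 under R 4.3.3 (TMM, filterByExpr, robust quasi-likelihood fits, no covariate), on the rats of the 2 groups compared or on all 12 rats for the ligated contrast and the 4 groups. Adjusted p-values are Benjamini-Hochberg values over all genes tested. The SE of a log2 fold change is its size over the root of its F statistic, and intervals use t quantiles. CPM used TMM factors over all rats. The scripts were tested on simulated counts. Alternatives were DESeq2 1.42.0, limma 3.58.1 on log2(FPKM + 1) and log2(FPKM + 0.1), RLE or library-size scaling, 2 other filters, no fold limit, 1 fit of all rats, a replicate block, and leaving out each rat.

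Replicates within a group differed beyond sampling noise (chi-square per degree of freedom 11.8 to 33.7), and p-values measure the spread between rats. The replicate numbers come from the labels and mark different animals. Deviations of same-numbered rats correlated over 0.1 in every pair only in BAIBA against HFE (0.118 to 0.224). No per-sample column was left unused for lack of a label.

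Named members were every Timp, any member called, the 10 with the highest mean FPKM, Mmp2, Mmp3, Mmp8, Mmp9, Mmp12, Mmp13, Mmp14, Adamts1, Adamts4 and Adamts5, and up to 5 higher and 5 lower members per comparison with the smallest p under 0.05. The other members were named to account for all of them, and the printed promoters were chosen after values were seen. The members and lists were chosen with earlier results of these data known. Promoters came from RefSeq (GRCr8), which was also used for neighbouring genes. Adamtsl1 and Mmp25 were not analysed here, and some values of listed and neighbouring genes are not reported here.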

Additional observations from a re-analysis of the deposited data

How the results depend on the processing

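Of 137 counts of members called under the alternatives, 136 were 0 as in edgeR. The exception was DESeq2 over the 4 groups, which called 2 members, and the cause was not tested. Over all genes DESeq2 called 10 to 155 genes in the pairwise and ligated comparisons and 345 over the 4 groups, where edgeR called 0 to 12 and 0. Of 2323 values of 148 fold changes of named members, 92 had the other sign, 81 of them where the size was under 0.2, and 0 were called. Of 47 fold changes of single members followed through every alternative that could test them, 4 turned sign when 1 rat was left out. Timp2 in HF against Sham ran from -0.17 to 0.087 on the log2 scale (0.087 without Sham rat 3, 0.058 without HF rat 1), and Adamts1 in HFE against HF from -0.56 to 1.09 (-0.56 without HFE rat 3). In BAIBA against HF, Timp1 ran from -0.046 (without BAIBA rat 1) to 1.54 and Timp4 from -0.24 to 0.23 (0.060 without HF rat 1, 0.23 without BAIBA rat 1). Where a group was left with 2 rats, its spread was pooled with that of the other rats.

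The number of members with an unadjusted p under 0.05 depended on single rats, and so did the share of all genes, given here in parentheses. In HF against Sham the number was 2 without Sham rat 2 (3.12%) and 3 without HF rat 2 (5.96%). In HFE against HF it was 7 without HF rat 1 (10.1%) and 2 without HF rat 3 (5.65%), and in BAIBA against HFE 10 without BAIBA rat 2 (9.6%). In HFE against Sham it was 3 without HFE rat 3 (10.8%). In BAIBA against Sham it was 0 without Sham rat 1 (3.98%) or 2 (5.35%) and 7 without BAIBA rat 2 (7.02%). For the ligated rats against Sham it was 0 without Sham rat 2 (4.1%), 4 without Sham rat 3 (7.29%), 3 without BAIBA rat 1 (7.05%), and 2 without any 1 HF rat or HFE rat 1 or 3 (5.51% to 6.77%). Over the 4 groups it was 10 without BAIBA rat 2 (9.66%) and 3 without HF rat 3 (9.47%), HFE rat 3 (8.74%) or BAIBA rat 3 (9.34%). With limma on log2(FPKM + 1) it was 2 in HF against Sham (5.33%) and 3 in HFE against Sham (9.87%).

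The replicate block left 0 members called in every comparison. It moved the number with an unadjusted p under 0.05 from 6 to 11 in BAIBA against HFE (12% of all genes), from 3 to 1 in BAIBA against Sham (6.34%) and from 1 to 2 for the ligated rats (6.5%). By the labels same-numbered rats share only a number, and outside BAIBA against HFE the correlations of their deviations ran from -0.082 to 0.124. Of the 49 members 28 to 33 were tested in a comparison, and the others had too few counts for a test at this depth.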
